A study of Mus musculus with 8 samples.

Results

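Expression of 10 genes of arginine, proline and polyamine metabolism was followed in mouse lung under induced TGF-β1: Arg1, Arg2, Nos2, Ass1, Asl, Oat, Aldh18a1, Pycr1, Prodh and Odc1. They were chosen by gene symbol, and 11 of the 39341 probes of the array, standing for 10 of 25734 named genes, carried one of these symbols. Prodh had 2 probes and each of the other genes had 1. All 10 genes were measured on all 8 arrays and all were tested. The animals were B6J mice aged 10 weeks per the labels, 4 wild-type (WT) and 4 carrying an inducible transgene for active human TGF-β1 (TGFb1-Tg), a growth factor that drives fibrosis. Doxycycline in the drinking water at 1 mg/ml switched the transgene on. The labels describe harvests 2 to 14 days after it was added, for the study and not per mouse, and they call the WT mice controls without saying whether these drank it; the headers of the files give 14 days for every lung, on doxycycline for TGFb1-Tg and on water for WT. If the headers are right, the drug and the transgene cannot be told apart in any difference between these groups. The promoter that drives the transgene is not given in the sources used here. Total RNA of whole lung in Cy5 was hybridised with a pooled control in Cy3 on every array.

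Arginases split arginine into urea and ornithine, and ornithine can be turned into proline or, through ornithine decarboxylase, into polyamines. Nitric oxide synthases use the same arginine to make nitric oxide and citrulline, and a pair of enzymes of the urea cycle turns citrulline back into arginine. Proline is also made from glutamate; it is one of the most abundant residues of collagen, and arginase 1 is a known product of alternatively activated macrophages in the mouse.

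What the pool was bears on every value below. The labels name 1 combined WT pool for all arrays. The headers instead give each set its own pool, 4 WT lungs in the one and 4 transgenic lungs in the other, all from mice that drank plain water. Xist, which is transcribed from the inactive X chromosome of females, had a pool intensity of at least 1.04 on each WT array and of at most 0.02 on each TGFb1-Tg array, so the 2 array sets did not carry the same pool. The main measure, log2 of the lung over the pool intensity, was compared as a difference of mean log2 ratios, TGFb1-Tg minus WT. Any difference between the 2 pools enters this measure, so a rise or fall can come from the lung, the pool or both. The lungs were therefore also compared with each other without the pool. Whether the WT pool held the WT lungs measured here was not tested. If it did, the WT ratios are centred by design, and the measure mostly sets TGFb1-Tg lungs against the pool on their own arrays. With TGFb1-Tg lungs tested against that pool alone, 9 of the 10 genes were higher and 1 lower (limma). In that test 6121 of all 25647 genes were higher and 6265 lower. WT replicate 1 stood apart: its lung had a Xist intensity of 4.6 and a Ddx3y (Y-linked) intensity of 0.04, against at most 0.04 and at least 6.83 in the other 7 lungs. Without it 7 of the 10 genes rose and 1 fell, in place of 6 and 1, the added gene being Arg1. Of all genes tested, 4446 of 25646 then rose and 4585 fell, in place of 4874 and 5082 of 25647. Nothing in the labels says more about the replicates than their numbers, and p-values measure the spread between these samples.

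The labels were checked with Tgfb1. Its lung intensity was 0.61 to 0.76 in WT and 1.32 to 1.70 in TGFb1-Tg, a 2.04-fold higher ratio (exact two-sided permutation test, p = 0.0286, the smallest that 4 against 4 arrays allow). The probe is that of the mouse gene, and whether it reads the human transgene was not tested. Of the markers of lung tissue only Foxj1, of ciliated cells, could be tested (1.63 to 2.09 in TGFb1-Tg against 2.56 to 3.22 in WT, adjusted p = 0.000212 in limma); the surfactant gene Sftpc was measured on 1 array, at 21.72, and Scgb1a1 of club cells on 3, at 6.27 to 9.46 in TGFb1-Tg lungs. The 4 club cell markers were on the array and none could be tested. They had values on 2 to 4 arrays and for no WT lung. Where measured they were bright, with mean intensities of 16.66 to 20.20 over the lung and pool channels together. Their TGFb1-Tg lung values alone ran from 6.18 (Cyp2f2) to 15.68 (Scgb3a2). What the missing values stand for, and why they are missing, was not tested. In whole lung, fewer cells of a type and less RNA per cell cannot be told apart.

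Across the 10 genes, 6 rose, 1 fell and 3 did not pass the test (limma, Benjamini-Hochberg adjusted p under 0.05 over 25647 genes). Over all genes 38.8% were called, 19% higher and 19.8% lower. The ratios of the 2 groups did not overlap for the same 7 genes, against 37.2% of the 25303 genes measured on all arrays. The median difference was 0.34 over the 10 genes and 0.00 over all genes tested. By size the order was Aldh18a1, Arg2, Nos2, Arg1, Pycr1, Prodh, Asl, Ass1, Oat and Odc1; 4.02% of all genes had a larger difference than Aldh18a1, and 83.6% a larger one than Odc1.

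**Figure D1:**
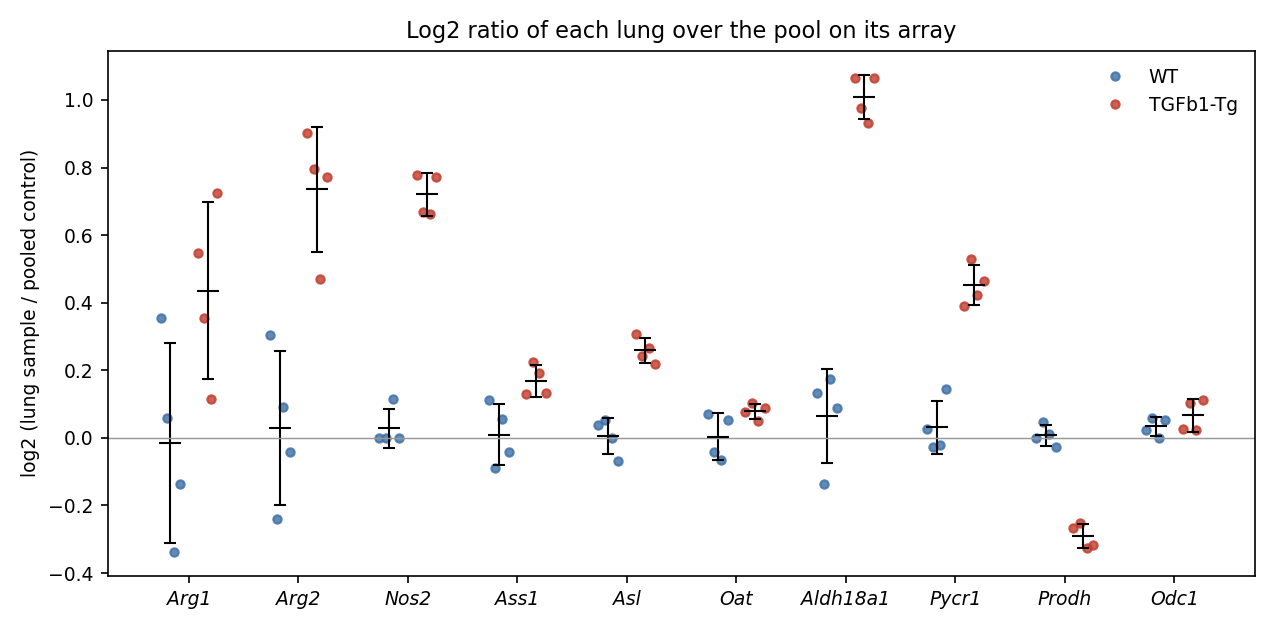
Log2 ratio of lung over pool for the 10 genes. Each point is 1 array (blue WT, red TGFb1-Tg) and the black marks are the mean and SD of 4 arrays; the groups stand fully apart for 7 genes, and Prodh is the one below its pool, between -0.25 and -0.33 in TGFb1-Tg.

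Arg1 encodes the cytosolic arginase (GRCm38.p6 chr10:24915207-24927470). Its lung intensity, on the deposited scale and in replicate order, was 0.32, 0.25, 0.19 and 0.20 in WT and 0.38, 0.32, 0.26 and 0.38 in TGFb1-Tg. WT replicate 1 was as high as the second TGFb1-Tg lung, so the groups overlapped. The pool was nearly level, between 0.22 and 0.26 on all 8 arrays. The mean log2 ratio was -0.01 ± 0.30 (SD, n = 4) in WT and 0.44 ± 0.26 (SD, n = 4) in TGFb1-Tg, and Arg1 did not pass the test: the difference was 0.45 ± 0.18 (SE), 1.37-fold, adjusted p = 0.101 in limma, with a 95% interval, not adjusted for the number of genes, of 1.01 to 1.85-fold. Without WT replicate 1 the difference was 0.57 and passed (adjusted p = 0.0453). Rounding of the deposited values alone can move a single Arg1 ratio by up to 0.0688.

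Arg2 encodes the mitochondrial arginase (chr12:79130788-79156301). Its lung intensity was 1.00, 0.72, 0.81 and 0.69 in WT and 1.29, 1.06, 0.90 and 0.99 in TGFb1-Tg. WT replicate 1 was again the highest of its group, above TGFb1-Tg replicates 3 and 4, and TGFb1-Tg replicate 3 was the lowest of its own group for both arginases. The pool was lower on the TGFb1-Tg arrays, at 0.58 to 0.69 against 0.71 to 0.85. The ratio rose from 0.03 ± 0.23 to 0.74 ± 0.19 (SD, n = 4 each), with no overlap, a difference of 0.71 ± 0.14 (SE), 1.63-fold, adjusted p = 0.00588. With quantile normalised lung intensities, and no pool, the lungs differed by 0.29 ± 0.13 (SE, adjusted p = 0.125).

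Nos2, the inducible nitric oxide synthase of macrophages and other cells (chr11:78920787-78960226), was dim and even within each group. Lungs had an intensity of 0.23, 0.24, 0.26 and 0.22 in WT and 0.36, 0.35, 0.38 and 0.41 in TGFb1-Tg. Every TGFb1-Tg lung lay above every WT lung, while the pool was at 0.21 to 0.24 on all 8 arrays. The ratio rose by 0.69 ± 0.04 (SE), 1.62-fold, adjusted p = 3.08e-05. Nos2 was the only one of the 10 genes called in the same direction under all 18 other settings tried for the ratio.

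In the ratio, where Arg2 and Nos2 rose and Arg1 did not pass, markers of monocytes and macrophages rose. All 7 that were tested passed (median difference 0.79), and their summed lung intensity was 17.7 to 19.5 in WT and 30.9 to 33.5 in TGFb1-Tg; the brightest were Mrc1 (4.88 to 5.70 against 8.16 to 9.64) and Itgam (5.11 to 5.86 against 6.385 to 7.45), and none was listed at 0. Of 4 neutrophil markers none rose and 2 fell, and their sums overlapped, at 5.485 to 12.5 in WT and 4.905 to 8.445 in TGFb1-Tg; S100a9 had 3.51 to 7.925 against 2.63 to 5.035 and S100a8 1.555 to 3.815 against 1.785 to 2.86. Their part in the arginase and Nos2 differences was not tested.

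Ass1, which joins citrulline and aspartate (chr2:31470270-31520670), and Asl, which then releases arginine and fumarate (chr5:130011258-130024381), had small differences in the ratio. The lung intensity of Ass1 was 1.07, 0.94, 1.06 and 1.06 in WT and 1.29, 1.39, 1.36 and 1.26 in TGFb1-Tg. That of Asl was 1.17, 1.13, 1.02 and 1.04 in WT and 1.46, 1.42, 1.42 and 1.42 in TGFb1-Tg. For both genes the lungs of the groups did not overlap, and neither did the pools: the pool beside the WT lungs had 0.99 to 1.09 for Ass1 and 1.02 to 1.14 for Asl, and the pool beside the TGFb1-Tg lungs 1.15 to 1.19 and 1.18 to 1.22. The ratio of Asl rose by 0.25 ± 0.03 (SE), 1.19-fold, adjusted p = 0.000773. The ratio of Ass1 rose by 0.16 ± 0.05 (SE), 1.12-fold, adjusted p = 0.0384. This call was the least firm of the 7: it was lost in 7 of the 8 fits that left out 1 array (all but the one without WT replicate 1), where the adjusted p reached 0.0984, and with the replicate number as a block (adjusted p = 0.107).

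Oat, the mitochondrial ornithine aminotransferase that leads ornithine toward glutamate and proline (chr7:132557475-132576398), was the brightest of the probes. Its lung intensity was 15.82, 13.93, 12.91 and 15.48 in WT and 16.84, 17.52, 16.29 and 17.22 in TGFb1-Tg. The TGFb1-Tg lungs were all higher, and so was their pool, at 15.74 to 16.31 against 13.52 to 15.06. The ratio did not pass the test (0.07 ± 0.03 SE, adjusted p = 0.147), with a 95% interval of 0.99 to 1.12-fold.

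Aldh18a1 encodes the enzyme that commits glutamate to proline and ornithine synthesis (chr19:40550257-40588463), and it had the largest difference of the 10. Its lung intensity was 0.34, 0.30, 0.35 and 0.34 in WT and 0.69, 0.61, 0.63 and 0.69 in TGFb1-Tg. The lowest TGFb1-Tg lung was far above the highest WT lung, and the pool was at 0.31 to 0.33 on all arrays. The ratio was 0.06 ± 0.14 in WT and 1.01 ± 0.07 in TGFb1-Tg (SD, n = 4 each), a rise of 0.94 ± 0.07 (SE), 1.92-fold, adjusted p = 8.54e-05. When the log ratios were quantile normalised, so that each array had the same spread, the call was lost (0.52, adjusted p = 0.0746). As deposited, the SD over the probes of a WT array was 0.13 to 0.16 and that of a TGFb1-Tg array 0.39 to 0.41.

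Pycr1 encodes a pyrroline-5-carboxylate reductase, the last step of proline synthesis (chr11:120638998-120643748). In the lungs its intensity was 0.57, 0.56, 0.70 and 0.42 in WT and 0.59, 0.65, 0.55 and 0.51 in TGFb1-Tg, and the groups overlapped over most of their range. The pool was 0.56, 0.57, 0.71 and 0.38 on the WT arrays, following the lung of each array closely, and 0.45, 0.45, 0.41 and 0.37 on the TGFb1-Tg arrays. The pool thus varied by 24.4% (SD over mean) on the 4 WT arrays, which share it per both sources. For the other 9 genes it varied by at most 8.42% there, Prodh being taken as the mean of its 2 probes. The dimmer Prodh probe alone also had an uneven pool on these arrays, at 0.13, 0.15, 0.21 and 0.23. In the ratio Pycr1 rose by 0.42 ± 0.05 (SE), 1.34-fold, adjusted p = 0.000449. Compared without the pool, the lungs did not pass: their difference was 0.34 (adjusted p = 0.0625), -0.01 (adjusted p = 0.958) or -0.05 (adjusted p = 0.758) with median, quantile or 75th percentile scaling. With the median it passed when WT replicate 3 (0.41, adjusted p = 0.0430) or TGFb1-Tg replicate 4 (0.41, adjusted p = 0.0406) was left out.

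Prodh, the proline dehydrogenase that starts proline breakdown in mitochondria (chr16:18071726-18089283), was the only one of the 10 genes that fell. The mean of its 2 probes gave log2 ratios of 0.00, 0.05, 0.01 and -0.03 in WT and -0.27, -0.25, -0.33 and -0.32 in TGFb1-Tg, with no overlap. The difference was -0.30 ± 0.02 (SE), 0.81-fold, adjusted p = 0.000105. The 2 probes did not move alike. The brighter one had a lung intensity of 0.84, 0.69, 0.81 and 0.77 in WT and 0.60, 0.60, 0.67 and 0.61 in TGFb1-Tg, and its ratio fell by 0.51 on the log2 scale (SE 0.03, adjusted p = 4.96e-05 over 29948 probes). The dimmer one had 0.13, 0.16, 0.20 and 0.23 in WT and 0.12, 0.12, 0.07 and 0.10 in TGFb1-Tg, its pool went the same way, and its ratio did not pass (-0.09 ± 0.06 SE, adjusted p = 0.283); rounding can move a single ratio of it by up to 0.193. The probe-level values are an addition made after the data were seen.

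**Figure D2:**
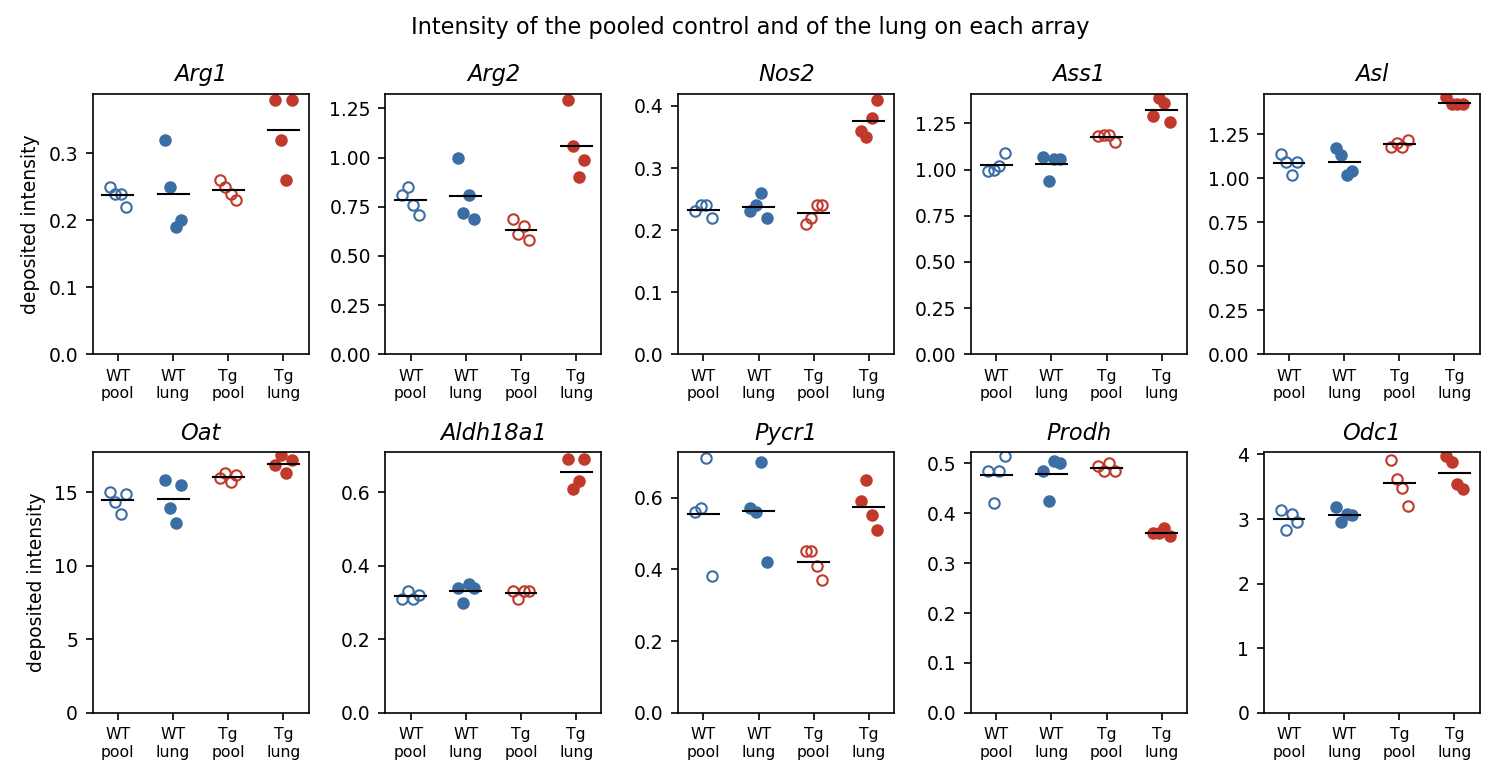
Deposited intensity of pool (open circles) and lung (filled circles) for each gene, 4 arrays per column (blue WT, red TGFb1-Tg), with the mean as a line and each axis starting at 0. Lung stands above pool in TGFb1-Tg only for some genes: Aldh18a1 goes from 0.31 to 0.33 in the pool to 0.61 to 0.69 in the lung, while for Oat and Odc1 pool and lung lie together.

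Odc1 encodes ornithine decarboxylase, the first step of polyamine synthesis (chr12:17544808-17551502). The lung intensity of Odc1 was 3.19, 2.95, 3.07 and 3.06 in WT and 3.98, 3.89, 3.54 and 3.46 in TGFb1-Tg, with no overlap. Its pool was 3.14, 2.83, 3.07 and 2.95 on the WT arrays and 3.91, 3.62, 3.48 and 3.20 on the TGFb1-Tg arrays, also with no overlap. The ratio did not pass the test (0.03 ± 0.03 SE, adjusted p = 0.420, 95% interval 0.98 to 1.07-fold), and its sign turned to -0.05 under quantile normalisation of the ratios. Markers of dividing cells were higher in the same lungs: all 6 rose (median difference 2.18), their summed intensity was 2.80 to 4.02 in WT and 14.0 to 17.3 in TGFb1-Tg, and the brightest were Mki67 (0.68 to 1.1 against 4.22 to 5.21) and Cdk1 (0.86 to 1.17 against 3.02 to 3.60), none being at 0. Their part in the Odc1 values was not tested.

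The promoters were read for 2 short motifs, since 2 proline genes and both citrulline-recycling genes rose in the ratio. Promoters were on hand from RefSeq (GRCm38.p6, 250 bases before to 50 after the start) for 6 of the 10 genes: Aldh18a1, Ass1, Oat, Odc1, Prodh and Pycr1. CACGTG, the E-box core bound by the MYC and USF families, and TGATGNAA, the core of the composite site bound by ATF4 with C/EBP proteins, were searched on both strands. CACGTG was found in Aldh18a1, 59 bases before the start, and in Ass1, 36 bases before it, and is held by 7.15% of 32851 promoters of this length. TGATGNAA was found in Pycr1, 103 bases before the start, and is held by 3.97%. Oat, Odc1 and Prodh held neither. The 3 promoters with a match are shown 5′ to 3′ on the gene's strand, the match in capitals; a match describes letters only. They lie at chr19:40588414-40588713 on the minus strand (Aldh18a1), chr2:31470020-31470319 on the plus strand (Ass1) and chr11:120643699-120643998 on the minus strand (Pycr1).
Aldh18a1: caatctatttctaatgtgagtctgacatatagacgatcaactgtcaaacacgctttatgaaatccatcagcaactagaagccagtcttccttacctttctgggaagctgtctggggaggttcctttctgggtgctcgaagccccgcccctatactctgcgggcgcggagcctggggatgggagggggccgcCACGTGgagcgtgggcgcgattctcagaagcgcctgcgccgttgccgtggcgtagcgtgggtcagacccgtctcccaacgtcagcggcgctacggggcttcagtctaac
Ass1: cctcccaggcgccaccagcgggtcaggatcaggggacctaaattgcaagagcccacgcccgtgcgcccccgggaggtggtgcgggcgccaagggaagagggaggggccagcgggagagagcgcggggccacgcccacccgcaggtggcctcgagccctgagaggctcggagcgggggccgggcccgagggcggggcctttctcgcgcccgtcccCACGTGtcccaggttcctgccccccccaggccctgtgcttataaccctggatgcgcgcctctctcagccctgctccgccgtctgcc
Pycr1: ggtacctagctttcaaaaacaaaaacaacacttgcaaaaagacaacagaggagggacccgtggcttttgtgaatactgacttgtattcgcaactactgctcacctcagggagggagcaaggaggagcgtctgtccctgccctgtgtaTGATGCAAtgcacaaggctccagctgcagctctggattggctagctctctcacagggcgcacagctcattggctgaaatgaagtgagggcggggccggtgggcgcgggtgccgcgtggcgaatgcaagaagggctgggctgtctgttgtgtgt

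The authors' deposited table also gives a p-value for lung against pool for each probe and array. For Aldh18a1, Arg2, Nos2, Pycr1 and the brighter Prodh probe it was under 0.05 on 4 of 4 TGFb1-Tg arrays and on 0 of 4 WT arrays; the highest of the 4 was 4.06e-08 for Aldh18a1 and 0.01 for Pycr1. For Arg1 it was under 0.05 on 3 TGFb1-Tg arrays and also on 2 WT arrays. Asl had 1 such TGFb1-Tg array, and Ass1, Oat, Odc1 and the dimmer Prodh probe none. These p-values compare the same lung and pool channels as the ratio and are not a separate measurement. How many of all probes show the same pattern was not counted, so these counts have no background to be read against.

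Lungs were next compared with each other without the pool, to ask which differences are seen in the lung channel alone. After the median of each array was subtracted, 8 of the 10 genes were higher and 0 lower, with Pycr1 and Prodh not called, against 35.1% of all genes higher and 13.2% lower, 48.3% in all. The lungs of the groups did not overlap for 7 of the 10 (not Arg1, Pycr1 or Prodh), against 45.1% of all genes. This scaling left the median of all genes at 0.12, quantile normalisation at 0.03 and the 75th percentile at -0.28, and higher genes made up 72.6%, 60.9% and 27.5% of all calls, so that absolute directions in the lungs depend on the scaling. With quantile normalisation 5 of the 10 genes were higher and 1 lower (all genes 20.5% and 13.2%), and with the 75th percentile 4 and 1 (15.3% and 40.3%). Nos2, Aldh18a1, Ass1 and Asl were higher under all 3, as were 13% of all genes. In the ratio and the median-scaled lungs together, 5 of the 10 genes were higher in both (these 4 and Arg2) and 0 lower in both, against 16.1% and 5.08% of all genes. Their differences with median, quantile and 75th percentile scaling were 1.27, 0.98 and 0.88 for Aldh18a1, and 0.95, 0.76 and 0.56 for Nos2. Those of Ass1 were 0.65, 0.23 and 0.26, and those of Asl 0.68, 0.26 and 0.29. Arg1 was called with the first 2 (0.78 and 0.62) and not with the last (0.39). Arg2 (0.69, 0.29 and 0.30), Odc1 (0.56, 0.09 and 0.17) and Oat (0.51, 0.24 and 0.12) were called with the median only. Prodh was lower with quantile (-0.45) and 75th percentile (-0.67) scaling and not called with the median (-0.28, adjusted p = 0.104). Its brighter probe alone differed by -0.04 with the median (adjusted p = 0.816), and was lower with quantile (-0.41, adjusted p = 0.00563) and 75th percentile scaling (-0.43, adjusted p = 0.00326). The dimmer one differed by -0.52 (adjusted p = 0.0713), -0.50 (adjusted p = 0.128) and -0.91 (adjusted p = 0.0121).

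**Figure D3:**
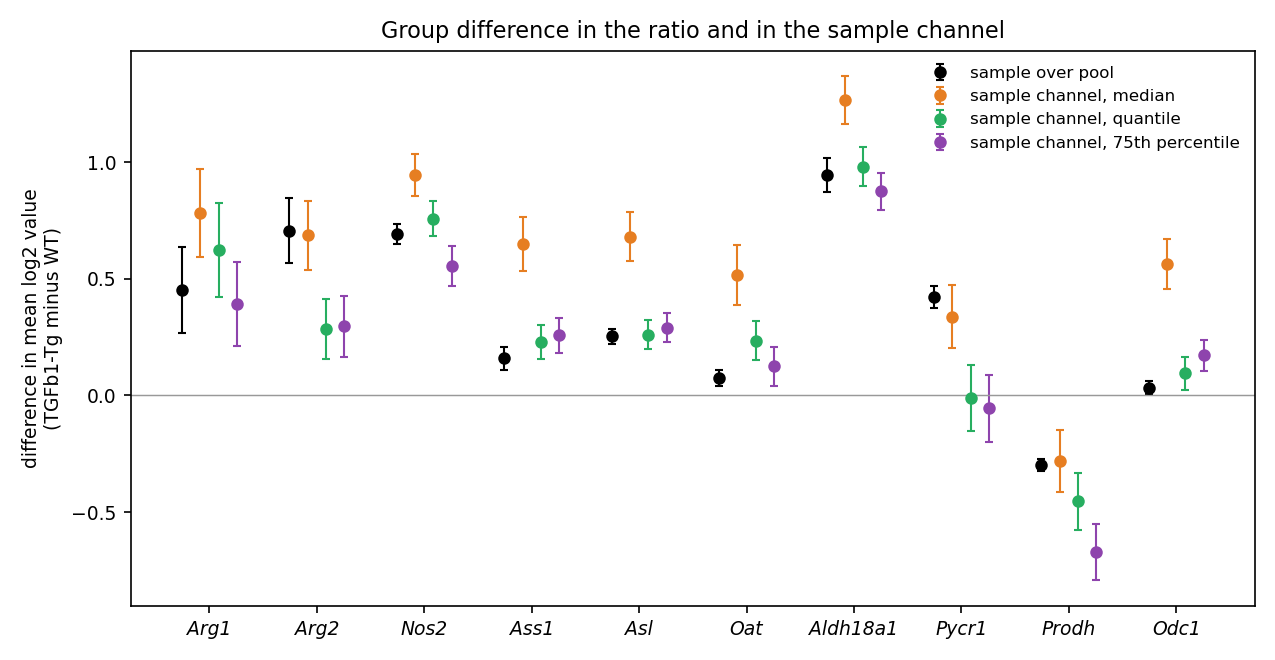
Difference between groups, TGFb1-Tg minus WT, with its SE, for the ratio (black) and for the lung channel under 3 scalings (orange median, green quantile, purple 75th percentile). Every gene but Pycr1 and Prodh is above 0 in all 4, though several are not called in all 4. Pycr1 falls from 0.42 in the ratio to -0.05 with the 75th percentile, and the median scaling gives the highest lung value for every gene.

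The pools themselves are 1 RNA per array set at most and were described without a test. On the TGFb1-Tg arrays the pool was lower than on the WT arrays under all 3 scalings for Arg2 (-0.07, -0.39 and -0.42 with median, quantile and 75th percentile), Pycr1 (-0.14, -0.40 and -0.48) and Prodh (-0.04, -0.17 and -0.38). It was higher under all 3 for Odc1 (0.48, 0.06 and 0.13), Oat (0.39, 0.13 and 0.04), Ass1 (0.43, 0.08 and 0.09) and Asl (0.37, 0.02 and 0.03). For Arg1, Nos2 and Aldh18a1 the sign of the pool difference changed with the scaling.

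Of the 37 other genes listed for these pathways, 36 could be tested; 15 rose, 3 fell and 18 did not pass, with a median difference of 0.13. Over all genes 19% rose and 19.8% fell, and the counts of the 4 lists below, of 8 to 12 genes each, are to be read beside these shares. Glul, glutamine synthetase, was measured on 4 arrays and was not tested. Among 8 genes of arginine synthesis, the urea cycle and arginine transport, 4 rose and 1 fell (median 0.14). Slc7a2, a transporter of cationic amino acids, rose by 1.18 ± 0.10 (SE), 2.27-fold (lung intensity 0.23 to 0.27 in WT and 0.45 to 0.65 in TGFb1-Tg, adjusted p = 0.000106). Slc7a7, the light chain of an exchanger that exports arginine, rose by 0.74, and Slc25a13, the mitochondrial aspartate and glutamate carrier, by 0.49. Otc, the ornithine transcarbamylase of liver and gut, fell by 0.77 at an intensity of at most 0.11. Of 6 hepatocyte markers, which include Otc and Cps1, none rose and 1 fell, and their sum was 0.55 to 0.70 in WT and 0.345 to 0.54 in TGFb1-Tg; the brightest were Cps1 (0.14 to 0.23 against 0.09 to 0.14) and Apoa1 (0.15 to 0.20 against 0.09 to 0.11).

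Among 8 other genes listed under the use of arginine or its derivatives 4 rose and 0 fell (median 0.16). Gatm, which moves the amidino group of arginine to glycine in the first step of creatine synthesis, rose by 1.24 ± 0.10 (SE), 2.37-fold (0.23 to 0.29 in WT and 0.71 to 0.97 in TGFb1-Tg, adjusted p = 9.53e-05). Azin2, counted in this list although it is an antizyme inhibitor, rose by 0.27. Ddah2, which breaks down methylated arginines, rose by 0.23. The fourth was Nos3, the endothelial nitric oxide synthase, at 0.23 (0.39 to 0.46 in WT and 0.48 to 0.55 in TGFb1-Tg), named after its value was seen. Its ratios overlapped between the groups (adjusted p = 0.0324 in limma). In the lungs Nos3 was higher with median (0.58) and quantile (0.29) scaling and not called with the 75th percentile (0.19, adjusted p = 0.0977). Markers of endothelial cells went the other way: all 6 fell, and the sum of the 5 measured on all arrays was 51.8 to 61.6 in WT and 34.6 to 37.1 in TGFb1-Tg. The brightest were Kdr (21.96 to 27.88 against 12.32 to 13.44) and Plvap (20.68 to 24.73 against 10.71 to 12.44).

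Among 8 tested genes of proline and glutamate turnover 2 rose and 1 fell (median 0.07), a share of called genes close to the 38.8% of all genes. Pepd, the prolidase that frees proline from dipeptides, rose by 0.32 ± 0.03 (SE), 1.25-fold (3.37 to 3.91 in WT and 5.55 to 6.07 in TGFb1-Tg, adjusted p = 0.000124). Pycrl, a relative of Pycr1, rose by 0.12, although its lung intensity was 0.29 to 0.31 in WT and 0.23 to 0.28 in TGFb1-Tg. Got1, the cytosolic aspartate aminotransferase, fell by 0.25. Fibroblast markers split, Col1a1 (0.73) and Col1a2 (0.34) rising and Dcn (-0.96) and Pdgfra (-1.04) falling; the brightest were Dcn (17.19 to 23.35 against 11.75 to 15.89) and Col1a2 (12.16 to 14.46 against 20.62 to 24.35), and the sums of the 4 overlapped, at 56.7 to 64.5 and 58.5 to 68.7. Their part in the proline genes was not tested.

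Among 12 genes of polyamine metabolism 5 rose and 1 fell (median 0.13). Amd1, which supplies the aminopropyl donor for spermidine and spermine, rose by 1.17 ± 0.05 (SE), 2.25-fold, adjusted p = 1.29e-05; its lung intensity was 5.74 to 6.28 in WT and 13.83 to 16.50 in TGFb1-Tg. Mouse Amd1 has a close copy, and which of them the probe reads was not tested. Paox and Smox, oxidases that break spermine or its acetylated form down, both rose by 0.38. The other 2 that rose, Azin1 (0.33) and Sat1 (0.25), were named after their values were seen. In the lungs Azin1 was not called with median (0.21), quantile (0.22) or 75th percentile scaling (-0.18). Sat1 was higher with each of these (0.83, 0.50 and 0.44). Oaz2, an antizyme that binds ornithine decarboxylase, fell by 0.18 in the ratio but was higher in the lungs with median scaling (0.51) and not called with quantile scaling (0.09). The synthases Srm (0.13 ± 0.07 SE, adjusted p = 0.201) and Sms (0.01 ± 0.02 SE, adjusted p = 0.701) did not pass.

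**Figure D4:**
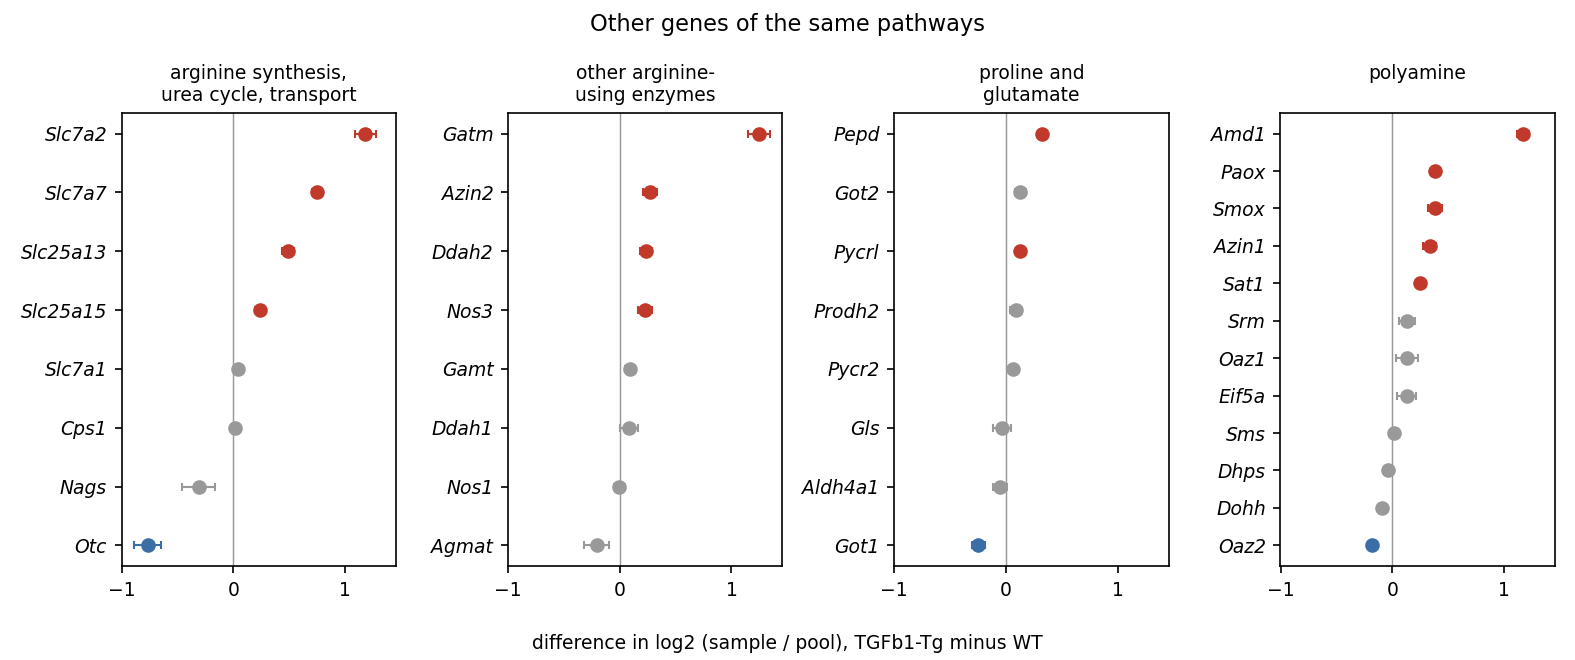
Difference in log2 ratio, TGFb1-Tg minus WT, with its SE, for the 36 tested genes of the same pathways in 4 groups (red called higher, blue called lower, grey not called). Gatm (1.24), Slc7a2 (1.18) and Amd1 (1.17) lie farthest to the right, and Otc (-0.77) farthest to the left.

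Markers of heart muscle and fat also differed between the groups. All 5 cardiac muscle markers fell, and the sum of the 4 measured on all arrays was 33.9 to 43.2 in WT and 14.99 to 17.4 in TGFb1-Tg, with Actc1 (15.2 to 18.66 against 6.46 to 6.80) and Tnnt2 (8.91 to 12.39 against 4.05 to 5.24) the brightest. Of 4 fat markers 3 fell, the sum being 1.835 to 2.46 in WT and 0.81 to 1.155 in TGFb1-Tg, with Cidec (1.15 to 1.34 against 0.54 to 0.84) and Adipoq (0.47 to 0.98 against 0.14 to 0.24) the brightest. Their part in the values of the 10 genes was not tested.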

How the data were processed

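Lung RNA from 4 WT and 4 TGFb1-Tg mice was measured on 8 two-colour arrays in 1 dye orientation. Per the labels, RNA was extracted with Trizol and 100 ng was amplified by RT and IVT. The submitters' processing notes list Agilent Feature Extraction 8.5.1.1. The deposited intensity of each channel was scaled by the authors to values given mostly to 2 decimals; no source used here gives the background correction, dye normalization, slides or scans. The deposited p-value per probe and array is described only. Log10 ratios, deposited as a value table, matched the intensities to 0.002 on 99.9898% of probes or more, whichever the array, with a median of 0 on each array, so that scale, centring and direction are known. Between 39039 and 39281 probes were measured per array, and no 2 arrays shared more than 15.5% of probe values.

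Probes were named through RefSeq accessions (6972), current symbols (16551), updated symbols (2555) or the symbol of the file (3985), using a GRCm38.p6 gene table; 9278 had no gene. A gene was the mean of its probes. Log2 ratios were fitted with lmFit and eBayes of limma 3.58.1 (R 4.3.3), two-sided, adjusted over 25647 genes (87 were not tested), and called at an adjusted p under 0.05; lung channels were fitted in the same way. A self-check on simulated data was run. Alternatives covered scaling, an offset, dim probes, probe choice, array weights, a replicate block and each array left out. Same-numbered arrays of the groups correlated at -0.04 to 0.05 over 16717 genes, so the numbers were not taken as pairs. Python 3.11.15 with pandas 2.3.3 and matplotlib 3.10.9 was used.

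The 10 genes, the pathway and marker lists and the motifs were chosen with earlier results of these data known. All 10 genes are named, and of each pathway list at most 3 called genes in each direction with the largest difference, and of each marker list the 2 brightest.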

Additional observations from a re-analysis of the deposited data

Results flagged for a closer look

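The log2 ratio of Nos2 on WT replicate 3 was 0.12, while the other 3 WT arrays were all at 0.00, which sets it apart from its group. The intensities behind it are 0.26 in the lung and 0.24 in the pool, given to 2 decimals, and rounding alone can move a Nos2 ratio by up to 0.0656. Of 40 groups examined (the ratio and the scaled lung value of the 10 genes in each group) this was the 1 that stood out, and chance does so for about 1 in 20.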

How the results depend on the processing

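Under quantile normalisation of the log ratios 1605 of 25647 genes rose and 1479 fell, against 4874 and 5082. Of the 10 genes 1 rose (Nos2) and 1 fell (Prodh, -0.20, adjusted p = 0.0206 in limma), and Odc1 turned to -0.0455. Of the 36 others 7 rose and 1 fell. With lungs compared directly 9003 genes were higher and 0 of the 10 genes lower. In that comparison the 75th percentile gave 3922 genes higher and 10329 lower, 4 of the 10 genes higher and 1 lower, 13 of the 36 higher and 10 lower, and Pycr1 at -0.0540; quantile scaling gave 5261 genes higher, 5 of the 10 genes higher and 1 lower, and Pycr1 at -0.0116. Of the 36, 3 were lower with quantile scaling and 2 with the median. With the median, 0 were lower with an offset and 0 to 1 when 1 array was left out. The cause was not tested. With the replicate number as a block, 5 of the 10 genes rose and 1 fell in the ratio (Ass1 lost, adjusted p = 0.107), 4359 genes rose and 4492 fell, and in the lung channel 0 of the 36 were lower; among the 10 genes the block changed no other call. Arg1 passed in 4 of 18 other settings of the ratio. Low intensity given to 2 decimals limits Arg1, Nos2, Aldh18a1 and the dimmer Prodh probe, and the number of arrays limits precision throughout.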
